A study of Mus musculus with 40 samples.

Results

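A set of 10 genes that mark resting microglia was followed in the mouse cortex, namely *P2ry12*, *P2ry13*, *Gpr34*, *Cx3cr1*, *Tmem119*, *Selplg*, *Fcrls*, *Olfml3*, *Sparc* and *Aif1*. They were taken by name as markers of homeostatic microglia and are 10 of the 43346 genes in the count table. All 10 passed the filter on low counts, a minimum of 10 counts in no fewer than 4 libraries of the 40, as did 21253 genes in all. The 40 libraries came from 4 groups of 10 mice, each with 5 females and 5 males. The non-amyloid cohort held wild-type mice (WT) and mice homozygous for *Trem2* H157Y (Hom), a CRISPR knock-in missense allele of the microglial receptor gene *Trem2*. The amyloid cohort was a few months older by the study's methods and held the same 2 genotypes, and all its mice were also hemizygous for 5xFAD, an amyloid model whose mutant human *APP* is driven by the neuronal *Thy1* promoter. Mice within a cohort were littermates, and the knock-in mice descended from a single founder. Age and the transgenes changed together between the cohorts and cannot be told apart in any difference between them. Each library was made from bulk cortex of 1 mouse, so fewer microglia and less RNA per microglial cell cannot be told apart either.

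Microglia of the healthy brain keep a gene program that sets them apart from other macrophages, which depends on TGF-beta and on signalling through the receptor Csf1r. The program includes receptors that sense nucleotides, lipids and neuronal chemokine at the tips of moving processes. Microglia that gather at amyloid plaques switch to a disease-associated (DAM) program through *Trem2*, and are known for carrying less of the homeostatic transcripts per cell. In bulk tissue a homeostatic gene can therefore be higher, level or lower in amyloid mice, and the first question was which of these each of the 10 genes showed.

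Total counts per library ranged from 41646271 to 105903846, and the members were covered by 347 counts (*Aif1*) to 39581 counts (*Sparc*) per library, so that counting error was at most 5.37% of a value. Microglial genes were present in every library, since the summed level of 12 pan-microglial markers ranged from 202 to 1428 CPM (counts scaled to the library size, TMM-normalized). The H157Y allele changes a codon and cannot be checked from counts, while *App*, to which part of the reads of the human transgene may map, had a mean of 1406 CPM in non-amyloid WT and 1693 CPM in amyloid WT mice. The library of amyloid Hom replicate 19, a female, stood apart. It had the lowest total, and 0.616% of its counts fell on 475 genes lying on an opposite-strand gene, against 0.0144% to 0.0191% in the other 39 libraries. The study excluded 1 female of the amyloid Hom group for a low percentage of gene counts and for its strand check, without naming it. Replicate 19 shares the sex, group and unusual strand measure of that library, but the study does not state that it is the same. All 10 libraries were kept here, and calls of the genes described here that changed without replicate 19 are named with them.

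In WT mice, all 10 homeostatic genes were higher in the amyloid cohort. Their log2 fold changes ran from 0.49 for *P2ry12* to 2.21 for *Fcrls*, with a median of 1.06 against 0.00 over all genes tested, and none was lower. All 10 were called, where a call needs a Benjamini-Hochberg adjusted p under 0.05 in edgeR's quasi-likelihood test and an absolute log2 fold change over 0.25. Of all genes tested, 7.31% were called and 6.21% were called higher. In 6 of the 10 genes every amyloid WT mouse was above every non-amyloid WT mouse, which held for 1.95% of all genes. The 10 calls held under each of the 8 alternative settings and in each of the 20 fits that left out a mouse.

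**Figure D1:**
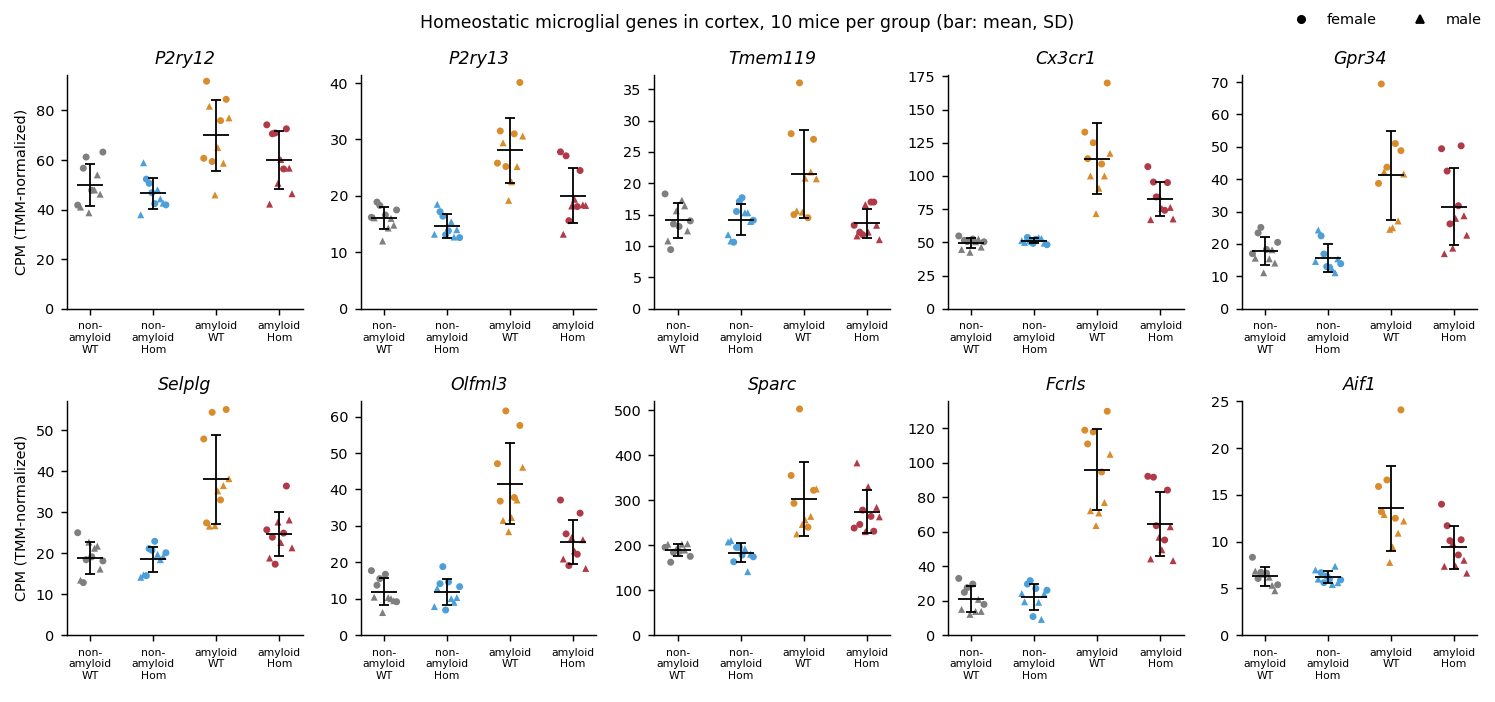
Level of each of the 10 genes in every mouse, in TMM-normalized CPM, by group on the horizontal axis (circles, females; triangles, males; bars, mean and SD of 10 mice). Non-amyloid WT and Hom mice overlap in every panel, amyloid WT means are highest, and the amyloid Hom means lie between those of amyloid WT and non-amyloid mice except for *Tmem119*.

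*P2ry12* was raised least of the 10 and its neighbour *P2ry13* more. *P2ry12* encodes a Gi-coupled ADP receptor through which microglial processes find injury. It ran from 38.7 to 63.2 CPM in non-amyloid WT mice, with a median of 47.8, and from 45.9 to 91.8 in amyloid WT mice, with a median of 70.5. The groups overlapped, with 6 of 10 amyloid mice above all non-amyloid mice, and the log2 fold change was 0.49 ± 0.11 (SE, adjusted p = 0.00600, edgeR's quasi-likelihood test). *P2ry13*, a related ADP receptor gene, lies 5389 bases from it on chromosome 3 and went from 12, 16.2 and 18.9 CPM (lowest, median and highest mouse) to 19.2, 27.6 and 40.1 CPM. Here the groups did not overlap, and the log2 fold change was 0.80 ± 0.11 (adjusted p = 7.5e-06). The *P2ry12* gene spans chr3:59216271-59262831 and *P2ry13* chr3:59207896-59210882 on mm10, both within *Med12l* on the opposite strand. In the GENCODE annotation 0.353% of the exon bases of *P2ry12* and none of those of *P2ry13* lay on opposite-strand exons. Among the other members, *Cx3cr1* had 1.73% of its exon bases on such exons. *Gpr34* lay within *Cask* on the opposite strand and had none.

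The lipid and chemokine receptors were 2.31-fold (*Gpr34*) and 2.28-fold (*Cx3cr1*) higher. *Gpr34*, a receptor gene for lysophosphatidylserine on the X chromosome (chrX:13632089-13640858), had lowest, median and highest values of 11.1, 17.6 and 25.1 CPM in non-amyloid and 24.5, 42.0 and 69.4 CPM in amyloid WT mice. Only 2 amyloid mice fell within the non-amyloid range, and the log2 fold change was 1.21 ± 0.17 (adjusted p = 2.6e-05). *Cx3cr1*, the receptor of the neuronal chemokine fractalkine (chr9:119901616-120068283), lay at 42.5 to 54.8 CPM without amyloid. Amyloid WT mice had 71.6 to 170 CPM with a median of 111, clear of all non-amyloid mice, and the log2 fold change was 1.19 ± 0.11 (adjusted p = 2.1e-08).

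Among the surface proteins the range was widest. *Tmem119*, a membrane protein gene used to tell microglia from other macrophages, gave 9.42, 13.8 and 18.3 CPM without and 14.5, 20.8 and 36 CPM with amyloid, and 4 of the 10 amyloid mice stayed within the non-amyloid range. Its log2 fold change was 0.61 ± 0.16 (adjusted p = 0.0146, the weakest of the 10). *Selplg*, which encodes the selectin ligand PSGL-1 and lies 18019 bases from *Tmem119* on chromosome 5, rose from 12.8 to 25 CPM to 26.6 to 55.1 CPM with no overlap (1.02 ± 0.15, adjusted p = 3.5e-05). *Fcrls*, an Fc receptor-like scavenger receptor gene (chr3:87250758-87263738), ran from 12 to 32.9 CPM with a median of 19.2 in non-amyloid WT mice and from 63.6 to 130 CPM with a median of 99.6 in amyloid WT mice. Its 4.63-fold difference (log2 2.21 ± 0.19, adjusted p = 1.3e-08) was the largest of the 10.

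The secreted and cytoplasmic members were also higher. *Olfml3*, a secreted olfactomedin-like protein gene (chr3:103733700-103738001), went from 6.18, 10.3 and 17.7 CPM to 28.4, 37.4 and 61.6 CPM, without overlap and with a log2 fold change of 1.81 ± 0.18 (adjusted p = 1.0e-07). *Sparc*, a secreted matricellular protein gene that astrocytes and vascular cells also express (chr11:55394500-55420080), went from 162, 190 and 203 CPM to 225, 278 and 503 CPM, again without overlap (0.68 ± 0.11, adjusted p = 1.1e-04). The 503 CPM came from replicate 12, a female, and without it the log2 fold change was 0.57 (adjusted p = 1.3e-05). *Aif1* encodes IBA1, the actin-binding protein stained to show microglia and other macrophages (chr17:35170991-35176068). It rose from 4.74, 6.35 and 8.32 CPM to 7.77, 12.7 and 24.1 CPM, with 9 of 10 amyloid mice above all others (1.11 ± 0.15, adjusted p = 1.4e-05).

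In Hom mice 9 of the 10 genes were higher in the amyloid cohort and *Tmem119* was level. The median log2 fold change was 0.59, against 0.03 over all genes. The 9 calls, all in the higher direction, compare with 5.89% of all genes called and 4.90% called higher. *Tmem119* ran from 10.6 to 17.7 CPM in non-amyloid and from 11 to 17 CPM in amyloid Hom mice, and its log2 fold change of -0.06 had a 95% confidence interval from -0.28 to 0.16 (adjusted p = 0.755, edgeR's quasi-likelihood test). Its sign turned to 0.12 (adjusted p = 0.539) with the GC index of each library, described below, as a covariate. Its adjusted p ranged from 0.539 to 0.821 over the 8 alternative settings and from 0.546 to 0.929 over the 20 fits that left out a mouse.

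*Cx3cr1*, *Sparc* and *Fcrls* did not overlap between the Hom groups, as 0.875% of all genes did in that direction. *Cx3cr1* rose from 48.2 to 53.7 CPM to 67.1 to 107 CPM (log2 0.69 ± 0.07, adjusted p = 5.4e-07), and *Fcrls* from 9.07 to 31.6 CPM to 43.2 to 92.2 CPM (1.55 ± 0.20, adjusted p = 1.8e-05). *Sparc* rose from 141 to 210 CPM to 230 to 383 CPM (0.58 ± 0.09, adjusted p = 1.2e-04). *Olfml3* had 9 of 10 amyloid Hom mice above all non-amyloid Hom mice (1.12, adjusted p = 8.0e-05), *Aif1* 8 (0.60, adjusted p = 0.00141) and *Gpr34* 7 (1.01, adjusted p = 0.00166). The other 3 calls were near the threshold. *P2ry13* had a log2 fold change of 0.45 (adjusted p = 0.0212), *Selplg* 0.41 (adjusted p = 0.0314) and *P2ry12* 0.37 (adjusted p = 0.0270). The call of *P2ry12* was lost in 5 of the 20 fits that left out a mouse (without amyloid Hom replicate 3, 16 or 34 or non-amyloid Hom replicate 20 or 37, highest adjusted p = 0.0537). That of *Selplg* was lost in 3 (without non-amyloid Hom replicate 2 or amyloid Hom replicate 34 or 39, highest adjusted p = 0.0585), and also without a filter on low counts (adjusted p = 0.0516) and in one fit of 40 libraries (adjusted p = 0.0585). With the GC index as a covariate *P2ry12* (0.26, adjusted p = 0.168) and *P2ry13* (0.31, adjusted p = 0.132) were not called. Without replicate 19 the same 9 genes were called.

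**Figure D2:**
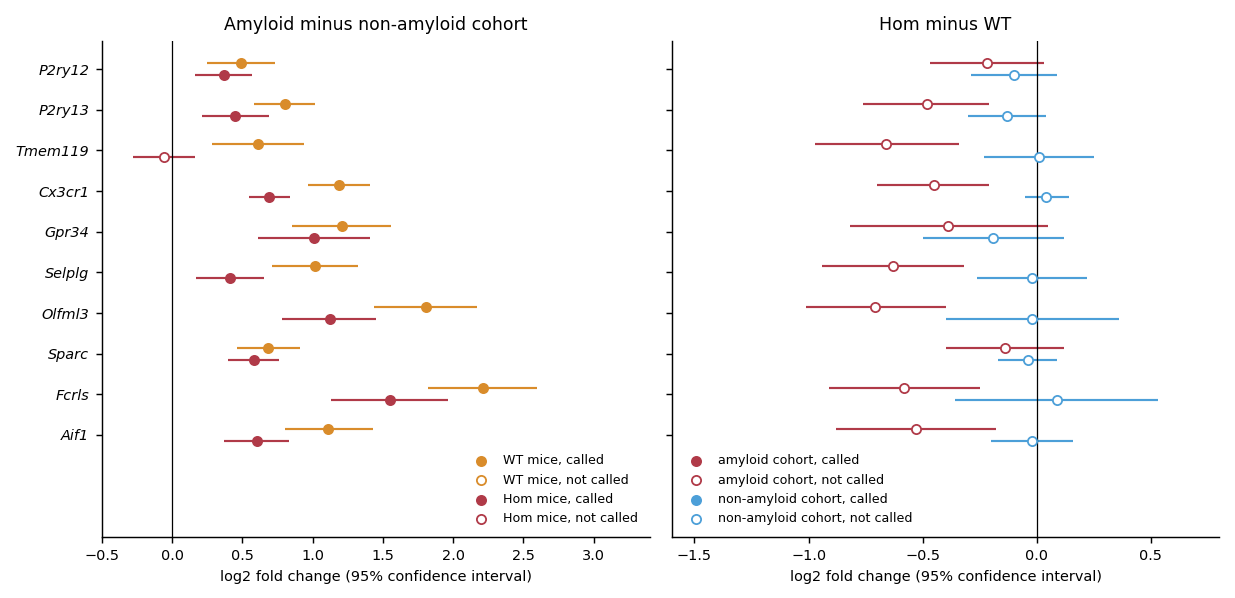
Log2 fold changes with 95% confidence intervals for the 10 genes, amyloid minus non-amyloid cohort within each genotype (left) and Hom minus WT within each cohort (right), with filled circles for calls. All 10 WT and 9 of 10 Hom cohort effects are called to the right of 0, amyloid genotype effects lie between -0.71 and -0.14 with no call, and the non-amyloid ones between -0.19 and 0.09.

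The promoters of the pair that rose most, *Fcrls* and *Olfml3*, and of the neighbouring ADP receptors are shown because these pairs also moved together from mouse to mouse (below). RefSeq on GRCm38.p6 gave windows of 300 bases, 250 before the start of transcription and 50 after it, for 7 of the 10 genes. All 4 shown are on the minus strand and written 5′ to 3′. Capitals mark AGGAAG, the core that ETS factors such as the microglial regulator Spi1 bind, or its reverse complement CTTCCT. The windows are chr3:59262936-59263235 for *P2ry12*, chr3:59210833-59211132 for *P2ry13*, chr3:87263475-87263774 for *Fcrls* and chr3:103737952-103738251 for *Olfml3*.
P2ry12: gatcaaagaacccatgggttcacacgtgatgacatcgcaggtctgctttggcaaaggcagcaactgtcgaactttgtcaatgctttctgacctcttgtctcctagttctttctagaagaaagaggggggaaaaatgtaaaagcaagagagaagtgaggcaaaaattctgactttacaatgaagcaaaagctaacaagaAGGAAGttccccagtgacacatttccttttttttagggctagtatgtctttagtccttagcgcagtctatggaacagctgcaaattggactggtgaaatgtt
P2ry13: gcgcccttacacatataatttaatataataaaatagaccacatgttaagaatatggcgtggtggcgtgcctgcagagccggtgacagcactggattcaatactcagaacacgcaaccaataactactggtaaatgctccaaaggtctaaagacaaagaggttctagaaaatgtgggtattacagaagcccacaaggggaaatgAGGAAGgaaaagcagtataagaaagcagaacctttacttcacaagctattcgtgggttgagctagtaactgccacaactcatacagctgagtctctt
Fcrls: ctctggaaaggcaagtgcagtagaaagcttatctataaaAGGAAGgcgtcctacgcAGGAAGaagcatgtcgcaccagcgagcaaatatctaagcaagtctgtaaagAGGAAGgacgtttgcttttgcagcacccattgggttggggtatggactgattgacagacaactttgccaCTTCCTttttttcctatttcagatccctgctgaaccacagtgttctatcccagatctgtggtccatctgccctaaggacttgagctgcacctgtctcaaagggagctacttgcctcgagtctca
Olfml3: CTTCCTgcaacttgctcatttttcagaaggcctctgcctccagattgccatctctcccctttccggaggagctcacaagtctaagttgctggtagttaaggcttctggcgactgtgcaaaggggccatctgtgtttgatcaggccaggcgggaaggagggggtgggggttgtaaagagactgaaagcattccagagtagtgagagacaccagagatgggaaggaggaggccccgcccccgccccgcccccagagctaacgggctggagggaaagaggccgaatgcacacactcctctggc
AGGAAG, searched on both strands, was found in these 4 windows of the 7, and in 35.4% of all 32851 promoter windows. *Fcrls* held 4 matches, at positions -211, -194, -143 and -74 from the RefSeq start, and 0.432% of all windows held at least as many. In the annotation of the counts *Fcrls* starts at chr3:87263738, inside this window, so all 4 matches lie within the annotated gene. *P2ry12* starts there at chr3:59262831, downstream of its window. *P2ry12* held its match at -52 and *P2ry13* at -47. The longer letters GAGGAAGT, to which the first motif belongs, were in none of the 7 windows and in 3.2% of all. A MEF2-type motif was found in *Cx3cr1* alone (3.69% of all windows) and TATAAA in *Fcrls* alone (13.6%), both strands searched.

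The order of the levels also differed between cohorts. Per kb of exon length, *Sparc* was highest in every group, from 54.5 to 90.0 CPM per kb. *P2ry12* came next in the non-amyloid groups, at 21 ± 3.60 CPM per kb in WT and 19.6 ± 2.58 in Hom mice (SD, n = 10), followed by *Cx3cr1* at 13.3 ± 1.03 and 13.7 ± 0.516. *Fcrls*, *Gpr34*, *Selplg*, *P2ry13* and *Tmem119* formed a middle range of 6.08 to 8.89 CPM per kb in non-amyloid WT mice, where neighbours in the order did not differ beyond their spread. *Aif1* (4.09) and *Olfml3* (2.96) were lowest. In amyloid WT mice *Fcrls* had moved to second place at 41.2 ± 10.2 CPM per kb, above *Cx3cr1* (30.2 ± 7.11) and *P2ry12* (29.4 ± 6.01), whose levels lay within each other's spread. The lowest 4 there, *P2ry13*, *Olfml3*, *Tmem119* and *Aif1*, spanned 8.84 to 11.1 CPM per kb and did not differ beyond their spread. In amyloid Hom mice *Fcrls* was at 27.6 ± 8, within the spread of *P2ry12* at 25.3 ± 4.87, and *Tmem119* (5.88 ± 1.02), *Aif1* (6.12 ± 1.48) and *Olfml3* (6.35 ± 1.53) were lowest and within each other's spread. Without replicate 19 the levels of *Fcrls*, *P2ry12* and *Tmem119* were 27.6, 24.7 and 5.96 CPM per kb.

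Set against genes that all microglia express, most of the members made up a smaller share. For each mouse, the log2 CPM of a member was taken minus the mean log2 CPM of 12 pan-microglial genes (*Itgam*, *Ptprc*, *Spi1*, *Irf8*, *Laptm5*, *Ctss*, *C1qa*, *C1qb*, *C1qc*, *Fcer1g*, *Tyrobp* and *Cd53*). These 12 were all called higher in amyloid mice of either genotype, with medians of 1.92 in WT and 1.1 in Hom mice, and several of them are known to rise in plaque-associated cells, so the list does not count cells. These values are descriptions and carry no test. In WT mice the difference fell by 1.33 for *P2ry12*, 1.24 for *Tmem119*, 1.17 for *Sparc* and 1.02 for *P2ry13*, with all 10 amyloid mice below all non-amyloid mice. It moved by -0.82 for *Selplg*, -0.75 for *Aif1*, -0.65 for *Cx3cr1* and -0.64 for *Gpr34*, while *Olfml3* kept pace (0.02) and *Fcrls* gained (0.44).

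**Figure D3:**
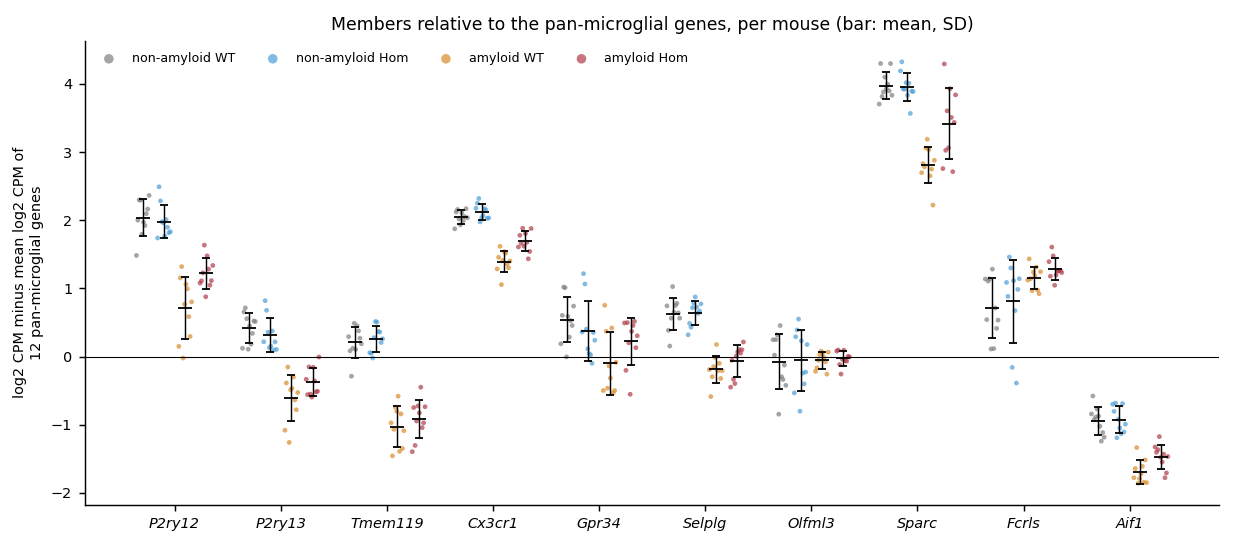
Log2 CPM of each gene minus the mean log2 CPM of 12 pan-microglial genes in every mouse, by group (bars, mean and SD of 10 mice). *P2ry12*, *P2ry13*, *Tmem119*, *Cx3cr1*, *Sparc* and *Aif1* are lower in all amyloid WT mice than in all non-amyloid WT mice, *Olfml3* is level at 0.02, and *Fcrls* is higher by 0.44.

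In Hom mice the same quantity moved by -1.17 for *Tmem119*, -0.76 for *P2ry12*, -0.71 for *Selplg*, -0.69 for *P2ry13*, -0.54 for *Sparc* and *Aif1*, -0.43 for *Cx3cr1* and -0.15 for *Gpr34*, with *Olfml3* at 0.03 and *Fcrls* at 0.48. Without replicate 19 the lowest value was still that of *Tmem119* (-1.17) and the highest that of *Fcrls* (0.46). So in both genotypes the sign was negative for 8 of the 10 genes. From amyloid WT to amyloid Hom mice the same quantity was higher for every member, by 0.03 (*Olfml3*) to 0.61 (*Sparc*), with 0.51 for *P2ry12*. Without replicate 19 these values were 0.05, 0.59 and 0.46. The sign depended on the reference. Against 12 other homeostatic genes, *Csf1r* among them, the WT difference was positive for *Cx3cr1* (0.35), *Gpr34* (0.37), *Selplg* (0.19) and *Aif1* (0.25), and stayed negative for *P2ry12*, *P2ry13*, *Tmem119* and *Sparc*. Against that list the Hom difference was positive for 6 genes that had been negative, *Gpr34* (0.59), *P2ry13* (0.06), *Cx3cr1* (0.31), *Selplg* (0.03), *Sparc* (0.20) and *Aif1* (0.20), and *Tmem119* (-0.43) and *P2ry12* (-0.01) stayed negative.

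The study's own comparison was Hom with WT within a cohort. In the amyloid cohort all 10 genes were lower in Hom mice, by log2 differences of 0.14 (*Sparc*) to 0.71 (*Olfml3*) in size and a median of -0.51 against 0.00 over all genes. None of the 10 was called by edgeR's quasi-likelihood test, and 0.0753% of all genes were. At an unadjusted p under 0.05 there were 7 of the 10, compared with 9.67% of all genes. *Olfml3* had 28.4, 37.4 and 61.6 CPM in WT and 18.3, 24.7 and 37.1 CPM in Hom mice, and 8 of 10 Hom mice were below all WT mice (0.613-fold, log2 -0.71 ± 0.15, adjusted p = 0.0554). *Tmem119* had 7 of 10 Hom mice below all WT mice (median 12.8 against 20.8 CPM, log2 -0.66 ± 0.15, adjusted p = 0.0681). The medians of *Selplg* were 24.4 in Hom and 35.9 CPM in WT mice (-0.63 ± 0.15, adjusted p = 0.0747), with 7 of 10 below all WT mice. For *Fcrls* they were 59.9 and 99.6 CPM, with 7 of 10 below (-0.58 ± 0.16, adjusted p = 0.108). The groups overlapped for all 10 genes. The study left out a library and called more genes in this comparison than were called here. It reported *P2ry12*, *P2ry13*, *Tmem119* and *Cx3cr1* as lower in Hom mice, *Tmem119* and *Cx3cr1* also by qPCR.

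The remaining chemoreceptors and *Aif1* differed less or with wider intervals. *Aif1* had a log2 difference of -0.53 ± 0.17 (adjusted p = 0.176), *P2ry13* -0.48 ± 0.13 (adjusted p = 0.108) and *Cx3cr1* -0.45 ± 0.12 (adjusted p = 0.0877). *Gpr34* (-0.39, 95% interval -0.82 to 0.05), *P2ry12* (-0.22, -0.47 to 0.03) and *Sparc* (-0.14, -0.40 to 0.12) had intervals that included 0. Without replicate 12 the difference of *Sparc* was -0.03.

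The count of calls in this comparison depended on the test. DESeq2 called 6 members (*P2ry13*, *Tmem119*, *Cx3cr1*, *Selplg*, *Olfml3* and *Fcrls*) and 303 genes in all. With sex as a covariate edgeR called those 6 and *Aif1*, among 251 genes or 1.18% of those tested. There *Fcrls* had an adjusted p of 0.00672, *Olfml3* 0.00810 and *Cx3cr1* 0.0137. A single fit of all 40 libraries called 6, with *Aif1* in place of *Fcrls*, among 612 genes. Leaving out amyloid WT replicate 13 gave 5 members (*P2ry13*, *Tmem119*, *Cx3cr1*, *Selplg* and *Olfml3*) among 204 genes, amyloid Hom replicate 34 gave 2 (*Selplg* and *Olfml3*) among 30, and amyloid Hom replicate 3 or amyloid WT replicate 9 or 22 gave *Olfml3* alone among 65, 60 and 95. Without replicate 19 none was called and the log2 difference of *Olfml3* was -0.67 (adjusted p = 0.0852). All 10 differences were negative in every one of these fits.

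Without amyloid no difference between Hom and WT mice was detected. None of the 10 genes was called by edgeR's quasi-likelihood test or by DESeq2 and none had an unadjusted p under 0.05, compared with 0.0329% of all genes called and 4.49% at an unadjusted p under 0.05. The log2 differences ran from -0.19 (*Gpr34*) to 0.09 (*Fcrls*), with a median of -0.02. Leaving out a mouse moved *Gpr34* between -0.28 (without non-amyloid Hom replicate 4) and -0.12 (without non-amyloid WT replicate 17), and *Fcrls* between 0.01 (without non-amyloid Hom replicate 11) and 0.18 (without non-amyloid WT replicate 1 or non-amyloid Hom replicate 23). The narrowest interval was that of *Cx3cr1*, -0.05 to 0.14 around 0.04, at 49.6 ± 3.87 CPM in WT and 51.1 ± 1.93 CPM in Hom mice (SD, n = 10). The widest was that of *Fcrls*, -0.36 to 0.53, so a difference of that size would not have been resolved.

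The interaction of genotype and cohort asks whether the genotype effects differ, and equally whether the cohort effects do, since these share their samples. Its estimate was negative for all 10 genes, with a median of -0.50. None was called in edgeR's quasi-likelihood test, where no gene of the 21253 was, nor by DESeq2, which called 38 genes. At an unadjusted p under 0.05 there were 7 of the 10 and 10.3% of all genes. *Cx3cr1* had -0.49 ± 0.13 (p = 4.6e-04, adjusted p = 0.133) and *Tmem119* -0.67 ± 0.20 (p = 0.00149, adjusted p = 0.173). Without amyloid WT replicate 13, *Cx3cr1* was called (-0.55, adjusted p = 0.0372). Without amyloid Hom replicate 19 none was called, and *Cx3cr1* had -0.50 (adjusted p = 0.211) and *Tmem119* -0.65 (adjusted p = 0.311). So the smaller cohort effects of Hom mice, and the level *Tmem119* among them, were not shown to differ from those of WT mice at the threshold used. For *P2ry12* (-0.12), *Gpr34* (-0.20) and *Sparc* (-0.10) the intervals included 0, and without amyloid WT replicate 12 the estimate of *Sparc* was 0.01. Leaving out a mouse moved *P2ry12* between -0.18 (without amyloid WT replicate 13) and -0.07 (without amyloid WT replicate 8), and *Gpr34* between -0.30 (without amyloid Hom replicate 34) and -0.08 (without amyloid WT replicate 8).

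Part of the spread within groups went with sex, a comparison made after these values had been seen. Over the 4 groups, with group in the model and all 40 libraries, 3 of the 10 genes were called higher in females by edgeR's quasi-likelihood test, while 0.358% of all genes were called and 0.254% were called higher in females. *Fcrls* averaged 60.9 CPM in females and 40.8 CPM in males (log2 0.59 ± 0.11, adjusted p = 0.00278). In amyloid WT mice its 5 females ranged from 94.7 to 130 CPM and its 5 males from 63.6 to 105 CPM, and in non-amyloid WT mice the ranges were 17.8 to 32.9 and 12 to 20.7 CPM. The sexes therefore overlapped within groups, although the female mean was higher in 4 of 4 groups.

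*Olfml3* averaged 26 CPM in females and 19.3 CPM in males (0.46 ± 0.10, adjusted p = 0.0238) and *Gpr34* 31.8 and 21.4 CPM (0.49 ± 0.11, adjusted p = 0.0280), each with a higher female mean in 4 of 4 groups. For *Gpr34*, an X-linked gene, females and males of the non-amyloid Hom group stood at 15.8 ± 4.07 and 15.5 ± 5.24 CPM (SD, n = 5). Leaving out a mouse cost *Gpr34* its call in 4 of 40 fits (amyloid Hom replicate 3 or 10, amyloid WT replicate 13 or 22) and *Olfml3* in 2 (amyloid Hom replicate 3, amyloid WT replicate 32), and *Fcrls* kept it in all 40. Without amyloid Hom replicate 19 *Fcrls* (0.60), *Olfml3* (0.49) and *Gpr34* (0.51) were the genes called. The other 7 genes were not called. *Cx3cr1* (0.21, adjusted p = 0.0706) and *Aif1* (0.31, adjusted p = 0.0907) came nearest, and *Sparc* was at -0.01 (95% interval -0.16 to 0.14). DESeq2 also called *Aif1* (adjusted p = 0.0389).

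**Figure D4:**
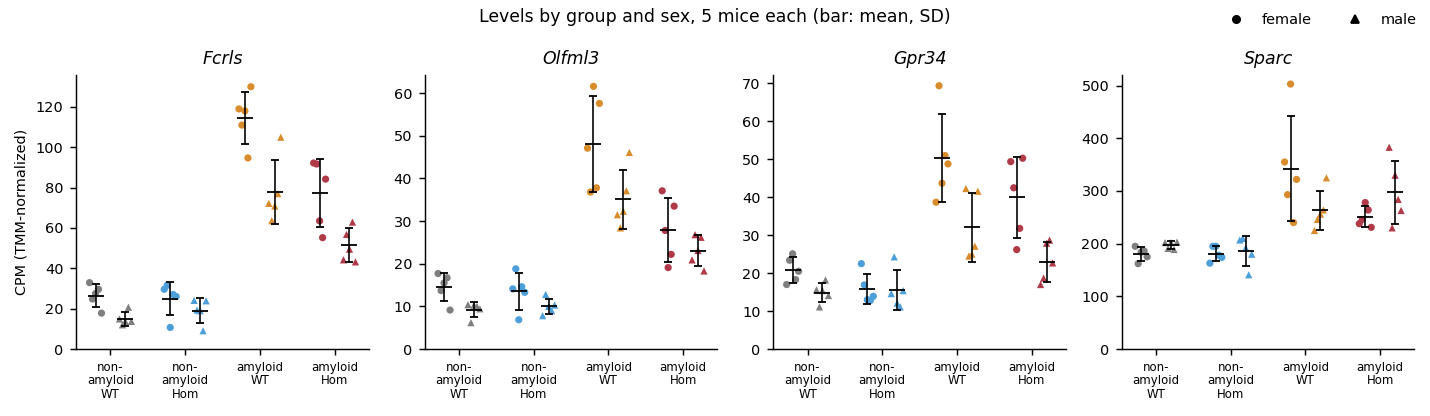
CPM of *Fcrls*, *Olfml3*, *Gpr34* and *Sparc* in each mouse by group, with females (circles) beside males (triangles) and bars for mean and SD of 5 mice. Female means of *Fcrls*, *Olfml3* and *Gpr34* are higher in all 4 groups, and the highest *Sparc* value, 503 CPM, is an amyloid WT female.

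Whether the cohort or genotype effect itself differed between the sexes was tested by interaction, and no gene of the 10 or of the 21253 was called in edgeR's quasi-likelihood test. *Sparc* had the lowest unadjusted p among the 10 in each. Its cohort effect in WT mice was 0.92 in females and 0.42 in males (difference 0.51, p = 0.0143, adjusted p = 0.932). Its genotype effect in amyloid mice was -0.45 in females and 0.18 in males (difference -0.63, p = 0.0104, adjusted p = 0.817). *Sparc* was the only member with an unadjusted p under 0.05 in either test, against 4.48% and 5.29% of all genes, and DESeq2 called none. Without amyloid WT replicate 12 the differences were 0.33 and -0.45, and without amyloid Hom replicate 19 the second was -0.67 (adjusted p = 0.886).

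Other genes of the homeostatic program were compared as a list. Of 12 further homeostatic genes, 10 were called higher in amyloid WT mice (median log2 fold change 0.85). *Csf1r*, the receptor microglia need to survive, rose by 1.11 ± 0.11 (adjusted p = 1.3e-07). *Mertk* (0.26) and *Crybb1* (0.23) were not called. In Hom mice 7 of the 12 were called, all higher, with a median of 0.42, and *Crybb1* was at -0.59 (adjusted p = 0.107). Of 15 DAM genes 14 were called higher in WT mice (median 1.90) and 12 in Hom mice (median 1.14). In the amyloid genotype comparison all 12 homeostatic, all 12 pan-microglial and all 15 DAM genes had negative estimates, with medians of -0.47, -0.76 and -0.85, and only the DAM gene *Gpnmb* among them was called. Without replicate 19 the same genes of these 3 lists were called in both comparisons that it enters.

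Of 12 genes for ligands and enzymes that act on these receptors, *Selp* did not pass the filter. Of the 11 tested, 2 were called higher in amyloid WT mice and the same number in Hom mice, beside 6.21% and 4.90% of all genes. *Entpd1*, the ectonucleotidase CD39 that breaks down extracellular ATP and ADP, rose by 0.72 ± 0.08 (adjusted p = 4.6e-07) in WT and 0.37 ± 0.07 (adjusted p = 0.00131) in Hom mice. *Adam17*, a protease that sheds fractalkine, rose by 0.31 (adjusted p = 0.00744) and 0.26 (adjusted p = 0.00615), and without replicate 19 its Hom estimate of 0.24 was under the threshold for a call. *Cx3cl1*, fractalkine itself, had estimates of -0.02 (adjusted p = 0.922) and -0.19 (adjusted p = 0.225) beside the higher *Cx3cr1*. *Pla1a*, a phospholipase gene whose product forms lysophosphatidylserine, was at 0.00 (adjusted p = 0.994) and -0.18 (adjusted p = 0.452).

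Of 12 genes for related receptors and signalling, 6 were called higher in amyloid WT and 4 in amyloid Hom mice. *Tgfbr2*, a TGF-beta receptor subunit gene, rose by 1.25 ± 0.10 (adjusted p = 2.0e-09) and 0.72 ± 0.06 (adjusted p = 5.7e-08), and was called lower in amyloid Hom than amyloid WT mice (-0.54 ± 0.10, adjusted p = 0.0487), a call lost without replicate 19 (-0.53, adjusted p = 0.0722). *Tgfb1*, its ligand gene, rose by 1.73 ± 0.26 (adjusted p = 4.1e-05) and 0.58 ± 0.13 (adjusted p = 0.00883). *Adora3*, an adenosine receptor gene, rose by 1.28 ± 0.16 (adjusted p = 3.1e-06) and 0.66 ± 0.15 (adjusted p = 0.00650). *P2rx7*, an ATP-gated channel gene, rose by 0.47 and 0.27. The inhibitory G protein subunit gene *Gnai3* was at -0.03 and 0.14, and the TGF-beta signal transducer gene *Smad3* at -0.04 and -0.18, none of them called.

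Markers of other cells that express some of these genes were compared as whole lists. Of 8 markers of border macrophages, which also express *Cx3cr1* and *Aif1*, none was called in any of the 4 comparisons, and their summed level had medians of 25 and 28 CPM in non-amyloid WT and Hom mice and 29.1 and 25.6 CPM in amyloid WT and Hom mice. Of 6 monocyte and neutrophil markers, cells that also express *Selplg*, *Cx3cr1* and *Aif1*, none was called either. Their summed level had group medians of 1.19 to 1.73 CPM and reached 19.7 CPM in the highest non-amyloid WT library, against 3.02 CPM in the highest of any other group. In the non-amyloid genotype comparison 4 of the 6 had an unadjusted p under 0.05, with a list median of -1.92, where no member had, and the part of these cells in the members' values was not tested. *Sparc* is shared with astrocytes, of whose 7 markers 3 were called higher in amyloid WT and 2 in amyloid Hom mice. Their summed level ranged from 1881 to 2289 CPM in non-amyloid WT and from 2613 to 4093 CPM in amyloid WT mice, without overlap. The median log2 fold change of these markers was smaller, 0.24 in WT (0.09 to 3.16) and 0.19 in Hom mice (0.05 to 2.35). Without replicate 19 those called in Hom mice were *Gfap* (2.32) and *Aqp4* (0.53). Of 8 endothelial markers 2 were called higher in WT mice and none in Hom mice (*Kdr* alone without replicate 19, 0.28, adjusted p = 0.0497), with group medians of 217 to 224 CPM, and none of 5 mural markers was called. No marker on these lists was at 0 in all libraries, and the part of astrocytes and endothelial cells in the *Sparc* result was not tested.

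The last question was which of the 10 genes moved together from mouse to mouse once group and sex were removed. Log2 CPM values were centred within the 8 combinations of group and sex, and Pearson's r was taken over the 40 libraries, which share their depth and base composition across genes, so r is given as a description. The 45 pairs had r from -0.39 to 0.90 with a median of 0.29, or from -0.47 with a median of 0.27 without replicate 19. *Tmem119* and its neighbour *Selplg* were most alike (0.90). *P2ry12*, *P2ry13* and *Gpr34* formed a second set (0.72 to 0.80), *Cx3cr1* and *Aif1* a pair (0.74), and *Olfml3* and *Fcrls* another (0.73). *Sparc* stood apart, with a median r of 0.03 to the other 9. Between the genes of the first 2 sets r was at most 0.06 and as low as -0.39, for *Tmem119* and *Gpr34*.

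These low values moved with a measure of base composition. A GC index was computed for each library after these values had been seen, as the slope of its log2 levels on the GC content of 14914 genes. It had r = 0.80 with *Tmem119* (59.1% GC) and 0.72 with *Selplg* (49.8%), and r = -0.68 with *Gpr34* (37.1%), -0.59 with *P2ry12* (38.6%) and -0.50 with *P2ry13* (44.7%), while the other 5 genes lay between -0.04 and 0.22. Among these, *Sparc* (52.5%), *Olfml3* (52.4%), *Aif1* (51.4%) and *Cx3cr1* (50.3%) had more GC than *Selplg* and yet lower r, and *Fcrls* had 48.5%. Without replicate 19 r was 0.81 with *Tmem119* and -0.73 with *Gpr34*. With the index removed the lowest r was -0.14 and the median 0.41, and *Tmem119* and *Gpr34* had r = 0.35. *Tmem119* and *Selplg* then had r = 0.77, but the set of *P2ry12*, *P2ry13* and *Gpr34* no longer stood apart. *P2ry13* had r = 0.76 with *Cx3cr1*, 0.72 with *Gpr34*, 0.70 with *Selplg* and 0.60 with *P2ry12*. *P2ry12* had r = 0.59 with *Cx3cr1*, 0.56 with *Gpr34* and 0.53 with *Selplg*. Median indices were 0.01 and 0.13 in non-amyloid WT and Hom mice and 0.05 and -0.09 in amyloid WT and Hom mice, in log2 units per 10 percentage points of GC. With the index as a covariate the cohort effect in WT mice was called for the same 10 genes, and the 2 calls it cost in Hom mice are given above.

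**Figure D5:**
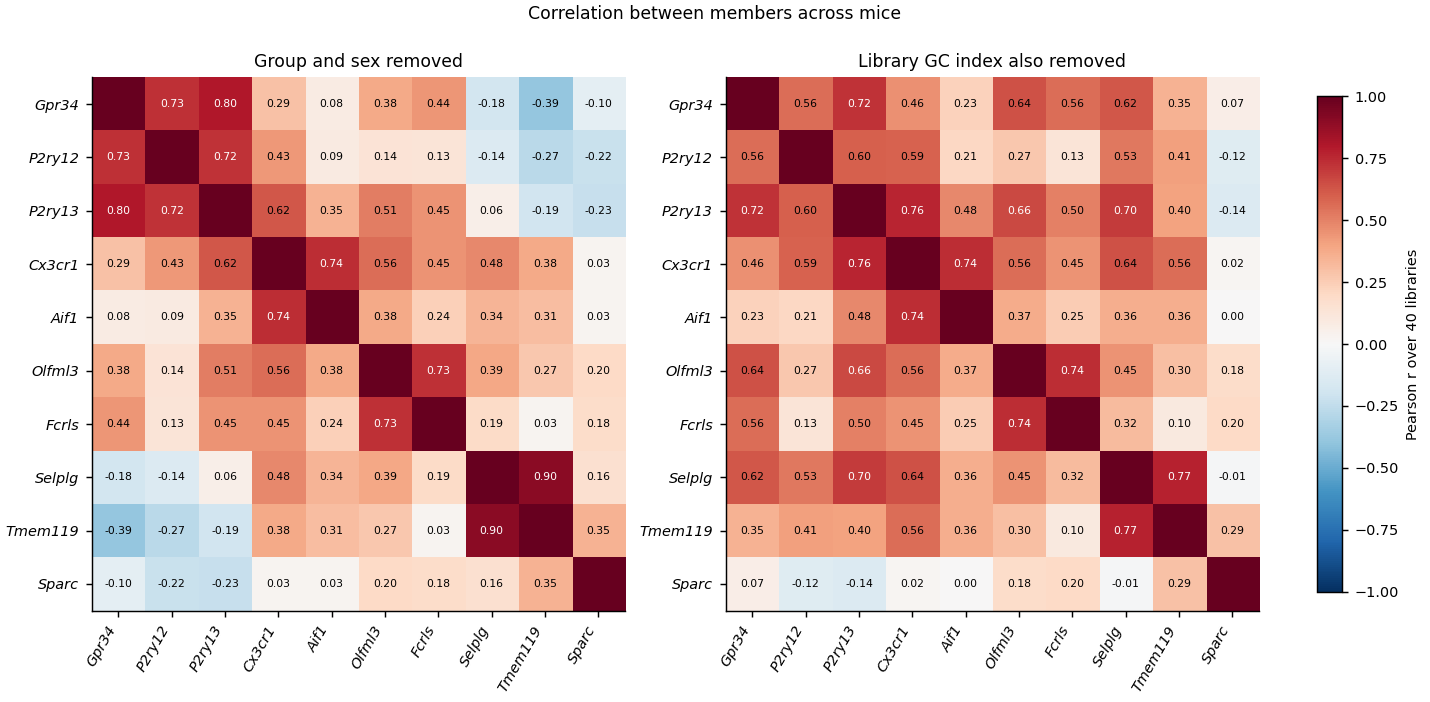
Pearson's r between the 10 genes over 40 libraries after removing group and sex (left) and also the GC index of each library (right), on a colour scale from -1 to 1. The mostly negative block between *Gpr34*, *P2ry12*, *P2ry13* and *Selplg*, *Tmem119* on the left, down to -0.39, is not negative on the right, where the negative values are those of *Sparc* with *P2ry12*, *P2ry13* and *Selplg*.

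Over all 15198 genes with a mean of at least 1 CPM, some members shared their closest partners. The GC index was not removed for these values. *P2ry13* and *Gpr34* were each led by *Cd53*, a leukocyte tetraspanin gene (r = 0.86 and 0.87). Next came *Oat* (0.82) and *Gpr34* (0.80) for *P2ry13*, and *Snora28* and *Pfn2* (each 0.84) for *Gpr34*. *Tmem119* was led by *Cotl1* and *Selplg* (each 0.90) and *Plod3* (0.89), *Selplg* by *Tmem119* (0.90), *Slc8b1* (0.89) and *Laptm5* (0.88), and *Cx3cr1* by *Cd9* (0.84), *Ctsh* (0.83) and *Lpcat2* (0.82). *Aif1* was led by *Gm6548* (0.80), *Pycard* and *Tmem173* (each 0.75). *P2ry12* was led by *Sec62* (0.81), *Cbfb* and *Lims1* (each 0.80), none of them on a list used here. *Sparc* had *Peg10* (0.78), *Arhgap36* (0.77) and *Ret* (0.75) as partners, none of them on any of the marker lists. *Olfml3* was led by *Fcrls* (0.73), followed by *Tmem173* and *Myo1f* (each 0.65). Leaving out replicate 19 changed r by at most 0.04 in the 30 pairs of a member and a partner.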

How the data were processed

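RNA was extracted from the frozen cortex of 40 mice and sequenced as poly-A libraries. The deposited values are raw counts per gene, whole numbers that the authors made from reads aligned to mm10 and did not normalize. The methods name MAP-RSeq with TopHat, Bowtie and featureCounts, and RSeQC for quality, while the submitters' processing notes name STAR 2.5.2b and featureCounts 1.5.1. The strand setting is not given in the sources used here. Groups came from the sample labels, and the members and gene lists were chosen with earlier results of these data known.

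Counts were normalized by TMM over 40 libraries and compared in pairs of groups (20 libraries) with edgeR's quasi-likelihood test, as the study's methods name it, with Benjamini-Hochberg adjustment over 21253 genes. The methods state no covariate, and none was used. CPM are TMM-normalized, and log2 CPM used a prior count of 2. Interactions with cohort used a 4-group model, and those with sex a model of group and sex. Replicates were separate mice, and in 180 pairs within groups the chi-square of the counts per degree of freedom was at least 13.7. Named genes were the 10 members, *Trem2* and *App* as checks, up to 4 genes with the lowest p and 2 with the smallest difference from each list, and up to 3 genes most like each member; a gene that this rule would name is not reported here. Alternatives were DESeq2, no filter, no fold-change threshold, scaling by upper quartile or by library size, sex as a covariate, a single fit of 40 libraries, each library left out, and, added after the values were seen, the GC index as a covariate, the comparison of the sexes, and the relative levels, levels per kb, gene lists and correlations without replicate 19. Only edgeR's test of the cohort effect in WT mice was tried on simulated counts. Software was R 4.3.3, edgeR 4.0.16, DESeq2 1.42.0, Python 3.11.15, NumPy 2.4.6, pandas 2.3.3 and matplotlib 3.10.9, with GENCODE vM21 for positions.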

Additional observations from a re-analysis of the deposited data

Results flagged for a closer look

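The highest level of *Sparc* among the 10 amyloid WT mice, 503 CPM in replicate 12, a female, was far from the next highest mouse at 355 CPM. The gap was 0.53 of the group's range, above Dixon's 95% critical value for 10 samples. It was the only such value in 40 tests (10 genes in 4 groups), where chance flags about 1 in 20 groups.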

How the results depend on the processing

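The 10 calls of the cohort comparison in WT mice held throughout, those in Hom mice not all, and the amyloid genotype comparison depended on the setting. In the cohort comparisons 520 of 532 alternative values of called members kept the call, 12 lost it and 0 reversed. The causes were not tested. In the amyloid genotype comparison the number of members called was 6 with DESeq2, 7 with sex as a covariate and 6 in one fit of 40 libraries, and 0 to 5 when a mouse was left out. Of all genes, 16 were called, with 303, 251 and 612 under those settings, 8 without a filter, 8 with the GC index and 6 to 204 when a mouse was left out. The interaction of genotype and cohort had 0 to 1 members called when a mouse was left out, and 38 of all genes with DESeq2, 12 with sex as a covariate and 0 to 22 when a mouse was left out. The comparison of the sexes had 1 to 3 members called when a mouse was left out, 1 of them without amyloid Hom replicate 3, and 76 of all genes, with 164 with DESeq2, 163 without a filter, 168 with the GC index and 54 to 122 when a mouse was left out. With the GC index, 764 genes were called in the cohort comparison of Hom mice instead of 1251, and 11 instead of 7 in the non-amyloid genotype comparison, as with DESeq2. DESeq2 called 3 genes in the interaction of cohort and sex.

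Of 69 reversals none was of a called member. A relative difference that changed sign was counted among them only where its size had exceeded the largest SD of a group, so not all sign changes listed below are included. In the cohort comparison of Hom mice *Tmem119* became 0.12 with the GC index. In the non-amyloid genotype comparison *Olfml3* became 0.00 with sex as a covariate and *Tmem119* -0.08 with the GC index. Leaving out a mouse gave -0.06 to 0.03 for *Aif1*, -0.12 to 0.06 for *Olfml3*, -0.07 to 0.03 for *Selplg* and -0.04 to 0.06 for *Tmem119*. In the interaction of cohort and sex in WT mice *P2ry13* became 0.00 with upper-quartile normalization and *P2ry12* 0.07 with the GC index, and leaving out a mouse gave -0.11 to 0.09 and -0.17 to 0.02. In the interaction of genotype and sex in amyloid mice the GC index gave -0.03 for *P2ry13*, 0.10 for *Tmem119*, -0.06 for *Gpr34* and 0.00 for *Fcrls*, and leaving out a mouse gave -0.10 to 0.13 for *Fcrls* and -0.26 to 0.05 for *Aif1*. *Sparc* ranged from -0.17 to 0.01 in the interaction of genotype and cohort and from -0.06 to 0.02 between the sexes. Against the other homeostatic genes as the reference, 4 relative differences changed sign in WT mice, 6 in Hom mice and 7 between amyloid Hom and WT mice (WT, *Cx3cr1* 0.35, *Gpr34* 0.37, *Selplg* 0.19, *Aif1* 0.25, and Hom, *P2ry13* 0.06, *Gpr34* 0.59, *Cx3cr1* 0.31, *Selplg* 0.03, *Sparc* 0.20, *Aif1* 0.20, and between amyloid Hom and WT mice *P2ry13* -0.09, *Tmem119* -0.21, *Cx3cr1* -0.03, *Selplg* -0.20, *Olfml3* -0.29, *Fcrls* -0.19 and *Aif1* -0.09). No paired analysis was possible because each mouse has a replicate number of its own.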

Other observations

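The closest partners of *Fcrls* lay on its own chromosome. Its 3 closest partners after group and sex were removed were *Rps3a1*, a ribosomal protein gene (r = 0.83, chr3:86137940-86142702), *Gm20628* (r = 0.75, chr3:96267075-96270289) and *Olfml3* (r = 0.73), all on chromosome 3. Of its 20 closest genes 7 lay there, while 5% of the genes compared did. For *P2ry12* and *Olfml3*, which lie on the same chromosome, there were 4 of 20 each, and for *P2ry13* there were 3. On their own chromosomes *Tmem119* and *Sparc* had 3 each, *Selplg* 2, *Cx3cr1* and *Aif1* 1 each and *Gpr34* 0. Over all 230 genes within 10 Mb of *Fcrls* the median r was 0.07, against 0.02 elsewhere, and larger differences were seen for *P2ry12* (0.37 over 85 genes against -0.01), *Selplg* (0.30 against -0.05), *Tmem119* (0.29 against -0.05), *P2ry13* (0.25 against 0.04), *Gpr34* (0.17 against 0.05) and, by little, *Aif1* (0.07 against 0.01). Without amyloid Hom replicate 19 there were 8 of 20 for *Fcrls*, 5 for *P2ry12*, 3 for *Olfml3* and 2 for *P2ry13*, and the median r near *P2ry12* was 0.38. *Tmem119* and *Selplg* then had 5 each, *Sparc* 3, *Gpr34* 2 and *Cx3cr1* and *Aif1* 1 each, so these counts moved with a single library. These correlations are descriptions over 40 libraries from littermate cohorts, and what the neighbouring genes share was not tested.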
